A study of Mus musculus with 47 samples.

Results

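Cranial neural crest cells of the second pharyngeal arch (PA2) at E11.5 were compared between the mice labelled Control and the mice labelled WT, the wild type. The 6 libraries were chosen by their labels alone, as the 3 PA2 libraries of each genotype at that stage, out of 47 libraries in the series. The other libraries cover crest progenitors at E8.5 and 4 postmigratory subpopulations (FNP, Mx, Md and PA2) at E10.5 or E11.5, in wild type, Ezh2cKO, HoxA2OE and Hoxa2TempMut. Control and Hoxa2TempMut exist only for PA2 at E11.5, and Control is taken here as the reference group of the temporal Hoxa2 knockout, which the labels do not spell out. The alleles carried by Control, any Cre or inducing agent given to it, and the strain of each group are stated nowhere in the labels. All 6 libraries came from microdissected tissue that was dissociated with trypsin, sorted by FACS and turned into unstranded total RNA libraries. The marker behind the sort is not stated, nor whether replicates were separate embryos or pools. The p-values below therefore rest on a spread between libraries that may be technical in part. Sex-linked RNA, given below, did differ between libraries of the same group.

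Neural crest cells leave the dorsal neural tube, fill the pharyngeal arches and form the skeleton and connective tissue of the face and neck. The muscle of each arch arises from a mesodermal core that the crest surrounds, so muscle genes serve as markers of another lineage in sorted crest. Hoxa2 is the selector gene that gives the second arch its identity. Immediate early genes such as Fos and Egr1 are transcribed within minutes of a growth factor or stress stimulus, without new protein synthesis.

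Levels are given in CPM, the count divided by the library total in M after TMM scaling, and differences as log2 fold changes ± standard error. A gene is called higher or lower in Control where edgeR's quasi-likelihood test gave a Benjamini-Hochberg adjusted p under 0.05 over 20560 tested genes. The wild-type libraries held 27.8 to 30.7 M counts and the Control libraries 32.3 to 35.4 M. Mitochondrial genes took 15.4 to 18% of the counts in wild type and 19.6 to 20% in Control. Prrx1, a mesenchymal homeobox gene of arch crest, stood at 963, 1064 and 1027 CPM in the wild-type libraries and at 940.3, 986 and 1095 CPM in the Control libraries, and the ranges overlapped. Wild-type replicate 2 and Control replicate 3 stood apart from the others of their group in sex-linked RNA. Xist was at 2386, 1.12 and 2736 CPM in wild type and at 2872, 1416 and 4.73 CPM in Control, while the Y-linked Ddx3y was at 16.9, 101 and 23.6 and at 32.9, 68 and 98.9 CPM, so the other 4 libraries held both transcripts.

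Hoxa2 (ENSMUSG00000014704, chr6:52162351-52165413) was measured first, as the gene targeted in the temporal knockout. It stood at 194, 199 and 183 CPM in wild type, at 268, 268 and 269 CPM in Control and at 195, 185 and 176 CPM in Hoxa2TempMut. All 3 Control libraries lay above all wild-type ones, and the Hoxa2TempMut libraries lay within or next to the wild-type range. The difference between Control and wild type was 0.48 ± 0.21 (edgeR adjusted p = 0.0947), which did not pass the threshold. It did pass in edgeR fits of the 6 libraries alone (adjusted p = 1.63e-05) and of the 9 PA2 libraries of E11.5 (adjusted p = 5.87e-06). It also passed with no low-count filter (adjusted p = 0.0337) and without the E8.5 and HoxA2OE libraries (adjusted p = 0.0406). The other alternatives did not call it. Which part of Hoxa2 is deleted in Hoxa2TempMut is not given in the sources used here, so the count over the whole gene does not check that label. In the FNP, Mx and Md wild-type libraries of E11.5, Hoxa2 reached at most 2.49 CPM, so both groups carried the RNA that sets PA2 apart.

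Across all genes, 2078 were higher in Control (10.1% of those tested) and 2459 were lower (12%), 22.1% in all. At least 2-fold differences were found for 532 of the higher genes (2.59% of all tested) and 677 of the lower ones (3.29%), 5.88% together. The median log2 difference over all genes was -0.008. With library totals alone in place of TMM it was -0.118, and the share of calls that were higher fell from 45.8% to 26.4%. Among the genes named here, library totals ended the higher calls of Bmp4, Col2a1, Col8a1, Fignl2, Fosl1, Foxf1, Gli1, Hoxa3, Klf2, Myh11, Myog, Nkx3-2, Ptch1 and Snap25 and the lower call of Btbd9. DESeq2 did not call Hoxa3, Myh11 or Myog.

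Promoters are shown for Egr2, Actc1 and Fosb, because these genes had the 3 largest rises among called genes with at least 5 CPM and no overlap between the groups. Each is the 250 bases before the start of transcription, from RefSeq on GRCm38.p6, written 5′ to 3′ along the gene; Egr2 lies at chr10:67537619-67537868 on the plus strand, Actc1 at chr2:114052876-114053125 on the minus strand and Fosb at chr7:19310046-19310295 on the minus strand. The deposited gene coordinates start further upstream for Egr2 (chr10:67535475-67542188) and Actc1 (chr2:114047282-114053548), so the windows of both lie inside the gene as counted, while that of Fosb lies just outside it. Capitals mark the serum response element, the CArG box read by serum response factor, which acts both on immediate early genes and on muscle actins.
Egr2 promoter: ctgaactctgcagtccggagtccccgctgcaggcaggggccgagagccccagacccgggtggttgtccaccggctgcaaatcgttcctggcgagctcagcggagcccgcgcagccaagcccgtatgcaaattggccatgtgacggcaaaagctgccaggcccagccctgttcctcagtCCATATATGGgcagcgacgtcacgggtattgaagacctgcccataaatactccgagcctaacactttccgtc
Actc1 promoter: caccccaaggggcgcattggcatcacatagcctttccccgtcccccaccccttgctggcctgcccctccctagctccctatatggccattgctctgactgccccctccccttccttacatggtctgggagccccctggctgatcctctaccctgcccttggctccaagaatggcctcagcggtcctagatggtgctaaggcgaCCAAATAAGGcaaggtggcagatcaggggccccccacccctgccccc
Fosb promoter: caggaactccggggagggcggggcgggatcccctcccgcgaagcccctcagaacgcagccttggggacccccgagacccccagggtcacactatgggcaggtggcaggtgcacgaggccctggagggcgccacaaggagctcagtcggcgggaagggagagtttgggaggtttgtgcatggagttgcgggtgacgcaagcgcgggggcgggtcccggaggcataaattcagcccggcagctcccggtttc
The Egr2 box begins 72 bases before the start and the Actc1 box 47 bases before it, and no box was found in the Fosb window. Neither box shares bases with the other motifs searched. Windows of 300 bases, 250 before and 50 after each start, were searched on both strands for this element, for the cyclic AMP response element TGACGTCA and for the TATA box TATAAA. Over all 32851 windows of the genome, 1.629% held a serum response element, 1.79% held TGACGTCA and 13.62% held TATAAA. Of 28 immediate early genes with a window, Egr2 and Zfp36 held a serum response element, Btg2, Dusp1 and Maff held TGACGTCA, and 5 held TATAAA. Of 17 contractile genes with a window, Acta1 and Actc1 held a serum response element, none held TGACGTCA and 6 held TATAAA. The shares over the genome count windows, whereas the list counts are genes with a match in any of their windows, so the measures differ. The 28 immediate early genes had 37 windows and the 17 contractile genes 20. These matches describe letters in the windows only, and the genes printed were chosen after their values had been seen.

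Immediate early genes were higher in Control. Of 33 tested members of a list of 35, 16 were higher in Control and none was lower, where 10.1% and 12% of all genes were. The median log2 difference of the 33 was 0.70, beside -0.008 over all genes. In 19 of them all Control libraries lay above all wild-type ones, where 20.6% of all genes did, and in 1 they lay below (22.7% of all genes). Egr3 and Egr4 were too low to be tested.

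Among the AP-1 subunits, Fosb (ENSMUSG00000003545, chr7:19302721-19310045) stood at 4.47, 8.58 and 4.08 CPM in wild type and at 22, 37 and 22.6 CPM in Control. Fos, its close relative, stood at 12.5, 30.9 and 9.54 CPM and at 58.8, 71.1 and 55.8 CPM. In both genes every Control library lay above every wild-type library, and replicate 2 was the highest wild-type library. The log2 differences were 2.25 ± 0.32 for Fosb (edgeR adjusted p = 1.47e-06) and 1.81 ± 0.27 for Fos (adjusted p = 2.57e-06). Jun, the usual dimer partner of Fos, was at 75, 84.5 and 74.6 CPM and at 85.6, 82.4 and 79.9 CPM, with a log2 difference of 0.08 ± 0.11 (adjusted p = 0.645). Junb differed by 0.74 ± 0.46 (adjusted p = 0.256), so neither passed the test, while Fosl1 was higher by 1.11 ± 0.36, a call lost without Control replicate 1, wild-type replicate 1 or wild-type replicate 3. Atf3, a stress-induced factor of the same family, was at 0.714, 0.485 and 0.418 CPM in wild type and at 1.36, 1.21 and 2.13 CPM in Control, a log2 difference of 1.53 ± 0.40 (adjusted p = 0.00424).

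Of the zinc finger factors of the Egr family, Egr2 and Egr1 were called higher. Egr2 (ENSMUSG00000037868), which carries the serum response element printed above, was at 1.12, 2.21 and 1.03 CPM in wild type and at 5.27, 7.8 and 12.4 CPM in Control, a log2 difference of 2.54 ± 0.33 (adjusted p = 2.86e-07). Egr1 was at 48.7, 72.1 and 41.2 CPM and at 74.3, 117 and 225 CPM, a log2 difference of 1.36 ± 0.34 (adjusted p = 0.00288). Control replicate 3 was the highest library for both, and without it Egr1 was no longer called. Its level in Control replicate 1 lay only just above wild-type replicate 2. Klf6 was at 54.2, 60.1 and 56.3 CPM in wild type and at 87.5, 87 and 87.9 CPM in Control, with little spread in either group. Klf2 was higher by 1.00 ± 0.35 on the log2 scale although its libraries overlapped (not called without Control replicate 2, wild-type replicate 1 or wild-type replicate 3), and Klf4 differed by 0.14 ± 0.17 and was not called.

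Several immediate early genes encode brakes on the same signals. Zfp36, which speeds the decay of inflammatory mRNAs, was at 4.63, 7.36 and 4.31 CPM in wild type and at 15.5, 16 and 17.6 CPM in Control (log2 difference 1.59 ± 0.20, adjusted p = 1.29e-07). Dusp1, a phosphatase of MAP kinases, was at 16.7, 18 and 13.3 CPM and at 32.4, 35 and 37.5 CPM (log2 difference 1.13 ± 0.14, adjusted p = 1.29e-07). Neither gene's groups overlapped, and the 3 Control libraries of each lay close together. Btg2, an antiproliferative factor, was higher by 0.81 ± 0.15, and Socs3, an inhibitor of cytokine receptors, by 0.90 ± 0.15. Cyr61, a secreted matrix protein, was at 69.4, 101 and 76.2 CPM in wild type and at 156, 151 and 132 CPM in Control (adjusted p = 0.000184). Ctgf, its neighbour in function, differed by 0.53 ± 0.20 and missed the threshold (adjusted p = 0.0504), and Gadd45b differed by -0.88 ± 0.39 (adjusted p = 0.101). Ier2 and Nr4a2 differed by 0.16 and 0.24 and were not called, whereas Nr4a1, an orphan nuclear receptor, was higher by 0.70 ± 0.18, except without Control replicate 3.

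**Figure D1:**
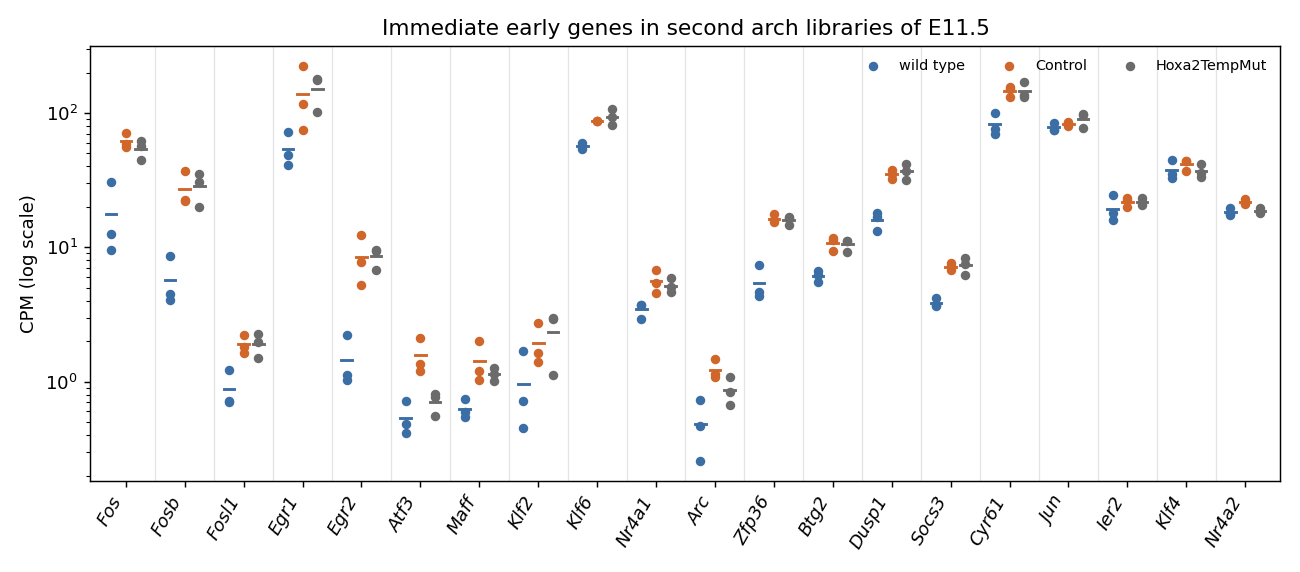
Level in CPM (log scale) of immediate early genes in each PA2 library of E11.5, by genotype. Wild-type Fosb lies at 4.08 to 8.58 CPM and Control Fosb at 22 to 37 CPM, while the points of Jun lie together.

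Hoxa2TempMut showed the rise too. Its Fosb levels were 35.1, 30.8 and 19.9 CPM and its Egr2 levels 6.82, 9.57 and 9.41 CPM. Against the same wild-type libraries, 16 of the 33 genes were higher in Hoxa2TempMut and 1 was lower (14.3% and 15.5% of all genes, 29.7% together). Both comparisons share their wild-type libraries and so are not independent. Between Hoxa2TempMut and Control, a comparison added after the data had been seen, Fosb differed by 0.07 ± 0.30 (adjusted p = 1) and Egr2 by 0.02 ± 0.29 (adjusted p = 1). Summed over the list, the level was 444 to 578 CPM in wild type, 748 to 881 CPM in Control and 786 to 883 CPM in Hoxa2TempMut. The 41 libraries outside Control and Hoxa2TempMut, from all stages and subpopulations, lay between 347 and 578 CPM. The 6 Control and Hoxa2TempMut libraries thus lay above every other library of the series, and genotype and library batch cannot be told apart.

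Skeletal muscle genes were higher in Control. Of 20 tested members of a contractile list of 21, 8 were higher (40%) and none was lower (median log2 difference 0.78). Of 14 tested members of a list of 17 myogenic regulators and fusion genes, 10 were higher (71.4%) and none was lower (median 1.53). Over all genes, 10.1% were higher and 12% lower. Wild-type replicate 2 had the lowest muscle RNA of all 6 libraries. Without it the contractile count was 3 of 20 and the myogenic count 6, and without Control replicate 2 the myogenic count was also 6. In bulk samples, more cells of a type and more RNA per cell cannot be told apart.

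Actc1 (ENSMUSG00000068614, chr2:114047282-114053548), the actin of embryonic striated muscle, was at 7.67, 1.94 and 6.88 CPM in wild type and at 20.3, 37.6 and 36.3 CPM in Control. The groups did not overlap, and both varied within themselves, with replicate 2 lowest in wild type and replicate 1 lowest in Control. The log2 difference was 2.52 ± 0.31 (edgeR adjusted p = 1.0e-07). Ttn, the giant elastic protein of the sarcomere, was at 35.7, 18 and 42.5 CPM and at 72.9, 123 and 122 CPM (log2 difference 1.73 ± 0.23, adjusted p = 6.6e-07). Neb, which runs along the thin filament, was at 18, 12 and 19 CPM and at 26.3, 39.2 and 43.7 CPM (log2 difference 1.16 ± 0.20, adjusted p = 4.4e-05). For both, Control replicate 1 was the lowest Control library and still lay above all wild-type libraries. The embryonic myosin Myh3 was at 1.8, 0.697 and 2.51 CPM and at 2.95, 6.45 and 5.25 CPM (adjusted p = 0.00524), a call that was lost without wild-type replicate 2. Slow troponin Tnnt1 was higher by 0.77 ± 0.22 (adjusted p = 0.0103) and also lost its call without that library. Actc1, Ttn and Neb were the contractile genes that kept theirs.

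Other contractile genes were not called. Des, the muscle intermediate filament, differed by 0.91 ± 0.37 (adjusted p = 0.0774) and the Z-disc protein Actn2 by 0.71 ± 0.29 (adjusted p = 0.0708). Mylpf, the fast skeletal regulatory light chain, differed by 0.17 ± 0.34 (adjusted p = 0.777). Myl4, the atrial and embryonic light chain, was the member with the largest negative difference, -0.92 ± 0.39 (adjusted p = 0.0803). None of these passed the test here. In the fit of the 6 libraries alone Des and Actn2 were called higher (adjusted p = 0.0352 and 0.0403) and Myl4 lower (adjusted p = 0.0354), and the 9 PA2 libraries of E11.5 fitted alone gave the same 3 calls. Without the E8.5 and HoxA2OE libraries Des and Myl4 were called. Des was also called by DESeq2, with no low-count filter and without Control replicate 1, and Myl4 was called lower with library totals.

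The myogenic regulators were present at low levels. Myf5, an early determination factor, was at 0.124, 0.0606 and 0.161 CPM in wild type, 11 counts over the 3 libraries, and at 0.822, 0.912 and 1.11 CPM in Control, 100 counts (log2 difference 3.01 ± 0.52, adjusted p = 4.1e-05). Myod1, the other determination factor, was at 0.248, 0.121 and 0.257 CPM and at 0.567, 1.94 and 1.8 CPM (log2 difference 2.76 ± 0.49, adjusted p = 9.7e-05). All Control libraries of both genes lay above all wild-type ones. Myog, which drives terminal differentiation, was at 0.373, 0.364 and 0.129 CPM and at 0.539, 1.12 and 0.664 CPM (log2 difference 1.40 ± 0.47, adjusted p = 0.0283), and was not called without Control replicate 2 or wild-type replicate 3. Pax7, a marker of muscle progenitors that crest cells also express, was higher by 1.67 ± 0.42. Mef2c, a cofactor of the myogenic factors that is also made in crest and endothelium, was at 8.79, 9.42 and 9.74 CPM in wild type and 15.3, 19.1 and 20.8 CPM in Control (log2 difference 0.98 ± 0.12, adjusted p = 1.31e-07). Musk, the kinase that organises the neuromuscular junction, was higher by 1.98 ± 0.42.

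**Figure D2:**
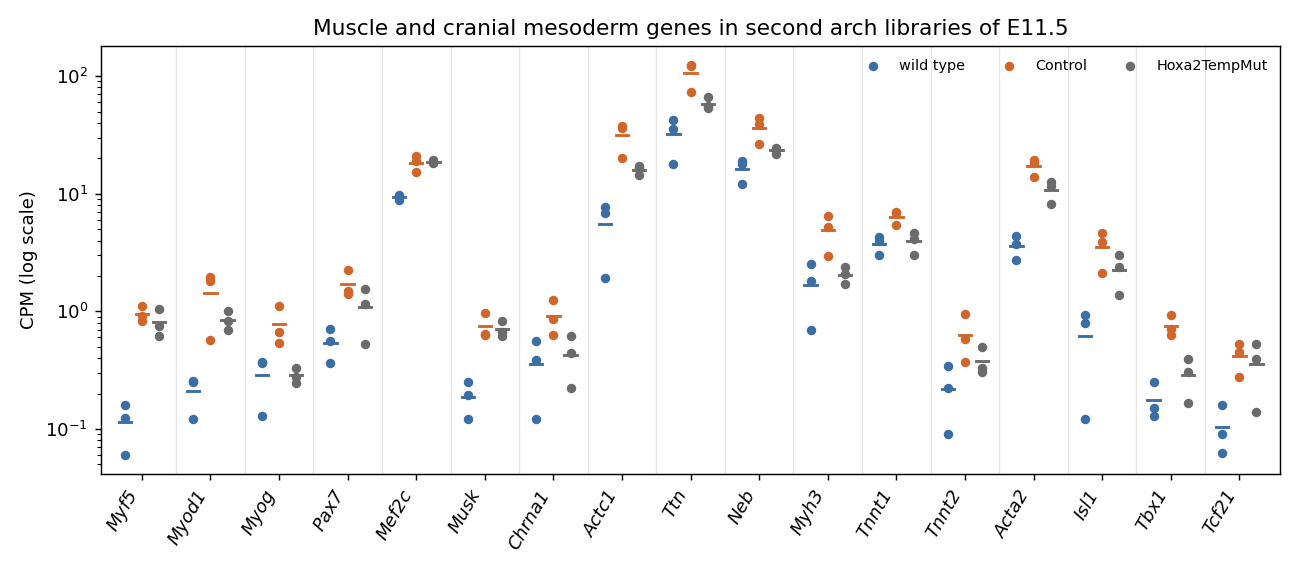
Level in CPM (log scale) of muscle and mesoderm genes in each PA2 library of E11.5, by genotype. Wild-type Actc1 lies at 1.94 to 7.67 CPM, Hoxa2TempMut Actc1 at 14.4 to 17.3 CPM and Control Actc1 at 20.3 to 37.6 CPM.

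Genes of the cranial mesoderm, from which arch muscle derives, were higher in 4 of 9 cases (44.4%, beside 10.1% of all genes) and lower in none. Isl1, a progenitor factor of pharyngeal mesoderm, was at 0.932, 0.121 and 0.803 CPM in wild type and at 4.62, 3.88 and 2.13 CPM in Control (log2 difference 2.52 ± 0.50, adjusted p = 0.000221). Every Control library lay above every wild-type library for Isl1. Tbx1, the core mesoderm factor, was higher by 2.08 ± 0.53 and Tcf21 by 1.97 ± 0.61, the latter a call lost without Control replicate 2, wild-type replicate 1 or wild-type replicate 2. Nkx2-5, the cardiac factor, was at 0 in all 6 libraries.

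Of 8 smooth muscle genes, Acta2 and Myh11 were higher (25%, beside 10.1% of all genes) and none was lower. Acta2, the actin of smooth muscle and of myofibroblasts, was at 3.76, 4.36 and 2.73 CPM in wild type and at 14, 19.2 and 18.2 CPM in Control, with no overlap (log2 difference 2.24 ± 0.26, adjusted p = 3.78e-08). Myh11, the smooth muscle myosin, differed by 0.57 ± 0.21 and lost its call without any 1 of the 6 libraries. In Hoxa2TempMut, Acta2 was at 8.22 to 12.5 CPM, above every wild-type library.

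Hoxa2TempMut lay between wild type and Control in Actc1, Ttn and summed contractile RNA. Its Actc1 levels were 16.5, 17.3 and 14.4 CPM, a log2 difference of 1.55 ± 0.30 from wild type (adjusted p = 0.000133) and of -0.97 ± 0.29 from Control (adjusted p = 0.145). Its Ttn levels were 53.3, 65.9 and 55.1 CPM. Of the 20 contractile genes 3 were higher than in wild type and 1 was lower, where 14.3% and 15.5% of all genes were in that comparison, so the share of higher members was near that of all genes. Of the 14 myogenic genes 5 were higher and none was lower. Summed contractile RNA was 40.2 to 80.6 CPM in wild type, 103 to 121 CPM in Hoxa2TempMut and 135 to 224 CPM in Control. Outside Control and Hoxa2TempMut the highest library of the series was one of Md at E11.5, with 84.9 CPM. Summed myogenic RNA was 11.8 to 14.2 CPM in wild type, 23.8 to 34.8 CPM in Control and 25.2 to 27.4 CPM in Hoxa2TempMut, within the Control range. None of these sums was high for the series, whose other libraries reached 236 CPM, in an FNP library of E10.5 with Myod1 at 0. Myod1 alone was at most 0.271 CPM in the 41 libraries outside Control and Hoxa2TempMut. It was at 0.567 to 1.94 CPM in Control and at 0.696 to 0.998 CPM in Hoxa2TempMut. Myf5 reached 0.878 CPM in those 41 libraries, within its Control range of 0.822 to 1.11 CPM.

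**Figure D3:**
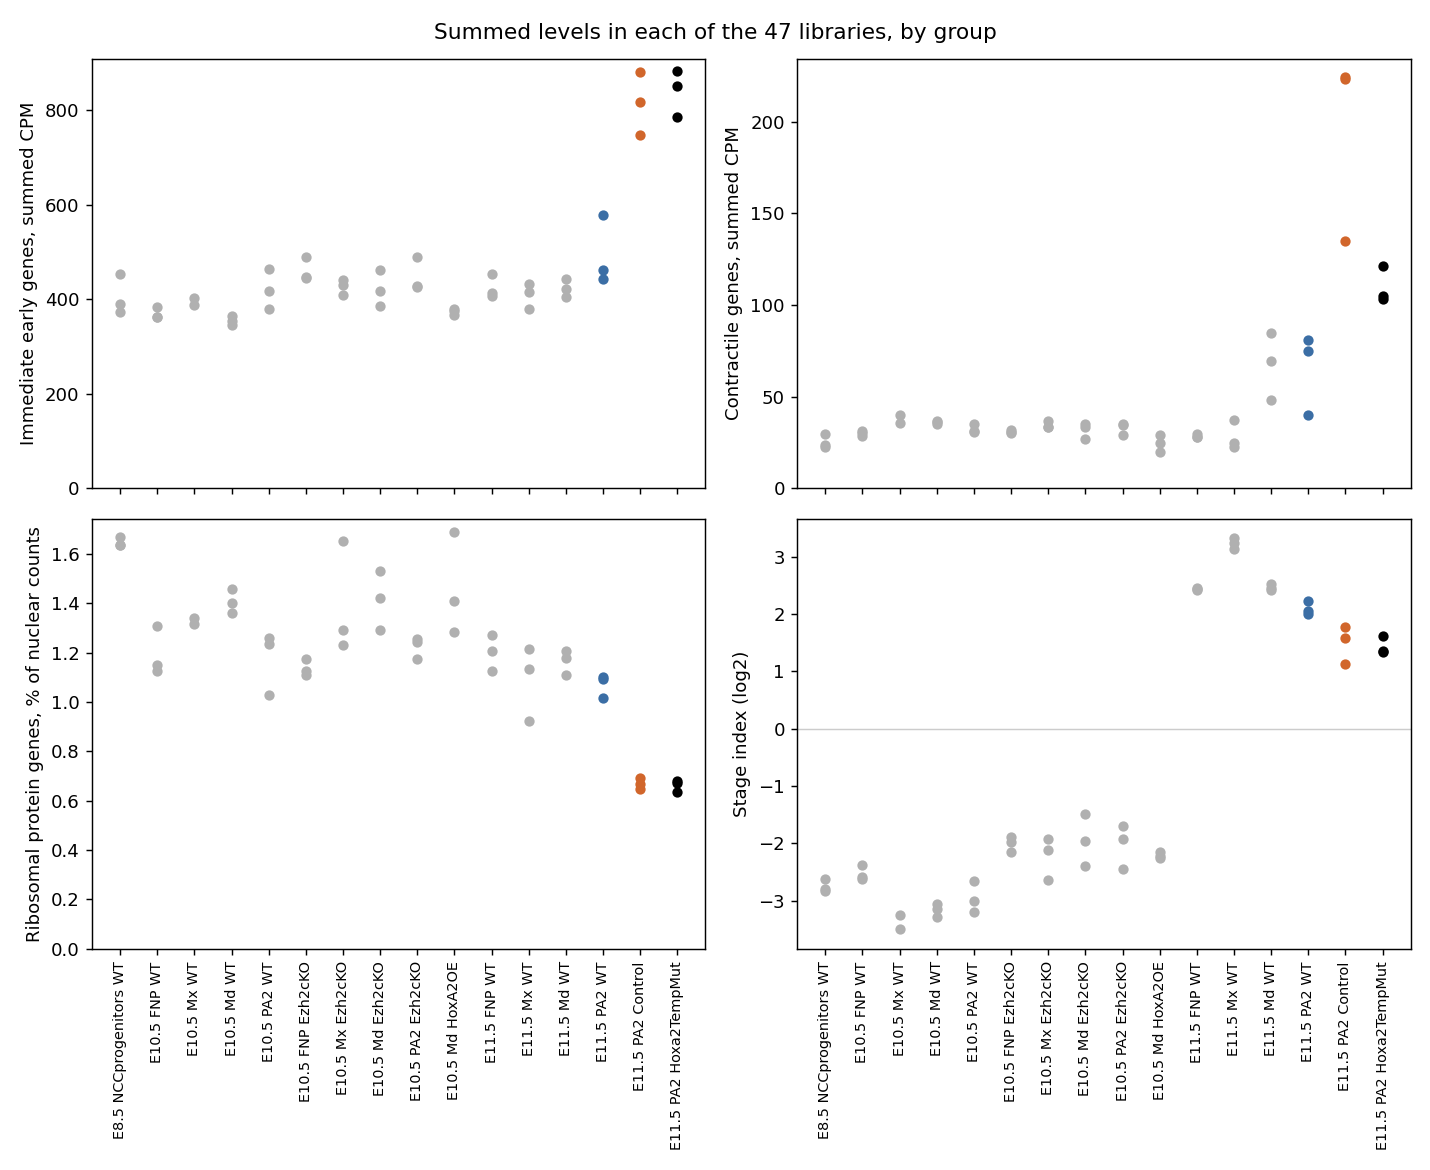
Values in each of the 47 libraries, by group. The panels give summed CPM of the immediate early and of the contractile list, ribosomal protein genes in percent of nuclear counts, and the stage index in log2. The percentage covers genes whose symbols begin with Rpl or Rps and a digit, and the stage index is defined below. In immediate early RNA the Control and Hoxa2TempMut libraries lie at 748 CPM or more and all others at 578 CPM or less.

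Stage was described with genes chosen outside PA2. From wild-type FNP, Mx and Md, 154 genes were at least 4-fold higher at E11.5 than at E10.5, and 49 were at least 4-fold lower, with 5 CPM or more on the higher side (30.9% and 27.6% of all genes, 58.5% together, were called in that comparison without the fold limit). The stage index is the mean log2 CPM of the risers minus that of the fallers. It was -3.20 to -2.66 in wild-type PA2 at E10.5. At E11.5 it was 2.0, 2.24 and 2.06 in wild type, 1.13, 1.58 and 1.77 in Control, and 1.35, 1.34 and 1.62 in Hoxa2TempMut. All 6 Control and Hoxa2TempMut libraries lay below the wild-type PA2 libraries of their age, and much nearer to them than to E10.5.

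Gene by gene, the risers were called about as often as other genes. Of the 154 risers 22 were lower in Control (14.3%) and 17 were higher (11%), beside 12% and 10.1% of all genes, with a median log2 difference of -0.21. Of the 49 fallers 13 were higher (26.5%) and 2 were lower (4.08%), with a median of 0.40. The count of lower risers was 9 without Control replicate 1, 14 without wild-type replicate 1 and 47 in a fit of the 6 libraries alone, and the count of higher risers was 10 without Control replicate 3. Control replicate 1 also had the lowest index of the 6 libraries. Among the 5 largest risers, Col8a1, a short-chain collagen, was higher in Control by 0.87 ± 0.27 (adjusted p = 0.0179; not called without Control replicate 3 or wild-type replicate 3), and Cbln4 differed by -0.86 ± 0.41 (adjusted p = 0.135). Among the 5 largest fallers, Fignl2 was higher by 0.50 ± 0.16 (adjusted p = 0.0176; not called without Control replicate 1 or wild-type replicate 3) and Lin28a, an RNA-binding protein of early embryos, differed by 0.86 ± 0.47 (adjusted p = 0.202).

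Lin28b, which like Lin28a blocks let-7 maturation, was lower at E11.5 than at E10.5 in every library of each wild-type subpopulation. It was at 351, 290.4 and 310.4 CPM in PA2 at E10.5, at 57.6, 48.1 and 60 CPM in wild type at E11.5 and at 172, 129 and 116 CPM in Control. Control lay between the ages in every library, with replicate 1 the highest. The log2 difference between Control and wild type was 1.33 ± 0.14 (adjusted p = 3.88e-09), and Hoxa2TempMut stood at 166, 178 and 147 CPM. Of 11 genes of this heterochronic list, Lin28b alone was called (9.09%, beside 22.1% of all genes), and a fit of the 6 libraries alone called 4.

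The anterior Hox genes carry the axial code of the hindbrain and its crest. Of 15 tested, 6 were lower in Control (40%, beside 12% of all genes) and Hoxa3 was higher. Hoxa3, which patterns the third arch and lies next to Hoxa2, was at 34.5, 28.5 and 29 CPM in wild type and at 52.7, 50.4 and 58.4 CPM in Control (log2 difference 0.81 ± 0.24, adjusted p = 0.0124), a call lost without Control replicate 3 or wild-type replicate 2, with DESeq2 (adjusted p = 0.101) and with library totals (adjusted p = 0.0643). The lower genes were the more posterior Hoxb4, Hoxc4, Hoxc5, Hoxd3 and Hoxd4, with log2 differences of -2.31, -2.10, -1.70, -1.34 and -2.10, and Hoxb2 with -0.92 ± 0.23. The calls of Hoxb4 and Hoxd3 were lost without Control replicate 1, Control replicate 2 or wild-type replicate 2. Hoxc4 was at 3.48, 3.09 and 3.95 CPM in wild type and at 0.34, 0.912 and 1.19 CPM in Control. Hoxd8, outside the list, was at 8.98, 11.1 and 10.2 CPM in wild type, 2.13, 3.18 and 3.62 CPM in Control and 2.33, 1.8 and 3.76 CPM in Hoxa2TempMut. Its log2 difference was -1.76 ± 0.33 (adjusted p = 0.000147), and all Control libraries lay below all wild-type ones.

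Genes that Hoxa2 is linked to in the second arch were called at a rate near that of all genes. Of 14, 3 were higher in Control (21.4%) and 1 was lower (7.14%), 28.6% together beside 22.1% of all genes. Alx4, a homeobox gene of anterior facial crest, was at 5.31, 6.0 and 5.17 CPM in wild type, at 15.4, 11.8 and 17.3 CPM in Control and at 34.8, 35.7 and 32 CPM in Hoxa2TempMut. The 3 groups did not overlap, and Control lay between the others. Control exceeded wild type by 1.43 ± 0.15 (adjusted p = 3.52e-09), and Hoxa2TempMut exceeded Control by 1.20 ± 0.13 (adjusted p = 1.35e-07). Lhx6 and Lhx8, LIM homeobox genes of the first arch, were higher in Control by 1.23 ± 0.21 and 0.70 ± 0.17. Zfp503 was lower (-0.54 ± 0.13).

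This graded order recurred in several of the 15 largest rises. Shisa3, an inhibitor of Wnt and FGF receptors, was at 8.17, 8.85 and 8.58 CPM in wild type, 30.3, 28.5 and 24.9 CPM in Control and 75.5, 88.3 and 91.5 CPM in Hoxa2TempMut. Gbx2, a homeobox gene, was at 2.64, 2.03 and 2.67 CPM, 8.19, 5.89 and 7.69 CPM and 18.3, 20.2 and 17.3 CPM in the same order. Syt6, a synaptotagmin, was at 1.8, 2.88 and 3.34 CPM, 8.0, 7.24 and 9.4 CPM and 18.1, 27.4 and 24.2 CPM. In all 3 genes Control lay above every wild-type library and below every Hoxa2TempMut library. The log2 differences between Hoxa2TempMut and Control were 1.61 ± 0.19, 1.36 ± 0.21 and 1.5 ± 0.17 (adjusted p = 5.14e-07, 7.76e-05 and 1.33e-07). Between these groups 53 genes were higher in Hoxa2TempMut (0.258%) and 75 lower (0.365%), 0.623% together, and 1243 had an unadjusted p under 0.05. Of the 4537 genes called between Control and wild type, 52 were also called between Hoxa2TempMut and Control.

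Arch patterning genes split by direction, with 11.8% higher and 23.5% lower, beside 10.1% and 12% of all genes. Of 17, Hand2, the ventral determinant of the arches, was higher by 0.76 ± 0.23 and Nkx3-2, a joint factor, by 1.71 ± 0.62. Msx1 and Msx2, homeobox targets of BMP signalling, were lower, with log2 differences of -0.94 ± 0.16 and -0.86 ± 0.21, as were Gsc and Prrx2 with -0.77 ± 0.21 and -0.60 ± 0.13. Msx1 was at 64.3, 62.3 and 51.8 CPM in wild type and at 30.3, 32.8 and 29.9 CPM in Control, without overlap. The Dlx genes, which code the proximal to distal axis, were not called: Dlx5 was at 183, 143 and 152 CPM in wild type and at 176, 157 and 160.1 CPM in Control. Hand2 lost its call without Control replicate 3, wild-type replicate 2 or wild-type replicate 3, and Nkx3-2 without Control replicate 1 or any 1 wild-type library.

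Targets of hedgehog signalling were higher in Control in 6 of 7 tested cases (85.7%, beside 10.1% of all genes), and none was lower. Ptch1, receptor and feedback target of the pathway, was at 71.3, 66.5 and 69.6 CPM in wild type and at 119, 110.2 and 100.1 CPM in Control (log2 difference 0.67 ± 0.17, adjusted p = 0.00429). Gli1, its transcriptional effector, was at 12.3, 11.3 and 11.3 CPM and at 20.1, 17.2 and 18.1 CPM (log2 difference 0.67 ± 0.19, adjusted p = 0.00798). The groups did not overlap for either. Foxf2, Foxd1 and Foxf1 were higher by 1.02, 0.71 and 0.63 on the log2 scale. The count was 2 with library totals in place of TMM, where Ptch1 and Gli1 were no longer called. Foxd1 lost its call without wild-type replicate 3, and Foxf1 without replicate 1 or 3 of either group. Summed over the list, the level was 96.5 to 105 CPM in wild type, 148 to 168 CPM in Control and 178 to 193 CPM in Hoxa2TempMut. In wild-type PA2 at E10.5 it was 259 to 273 CPM.

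Connective tissue and matrix genes leaned lower. Of 19, 5 were lower (26.3%) and 1 was higher (5.26%), beside 12% and 10.1% of all genes (median log2 difference -0.28). Twist2, a mesenchymal repressor, was at 59.6, 56.5 and 49.8 CPM in wild type and at 30.9, 29.2 and 33 CPM in Control (log2 difference -0.83 ± 0.14, adjusted p = 1.34e-05). Dcn, a matrix proteoglycan, was lower with a difference of -1.04 ± 0.21, the tendon factor Scx with -0.86 ± 0.23 and the collagen genes Col6a3 and Col1a1 with -0.68 ± 0.13 and -0.46 ± 0.15. Osr2, a palate and joint factor, was higher by 0.76 ± 0.20. Col1a1 was not called without Control replicate 1, Control replicate 2 or wild-type replicate 1, and a fit of the 6 libraries alone called 10 members lower. Of 20 cartilage and bone genes, 4 were higher (20%), among them the osteoblast factor Runx2, by 0.80 ± 0.17, and Col2a1 and Bmp4, with 0.51 and 0.49. Acan, the cartilage proteoglycan, was lower (-1.23 ± 0.35). Bmp4 lost its call without Control replicate 3 or wild-type replicate 3, and with library totals the higher count was 2.

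**Figure D4:**
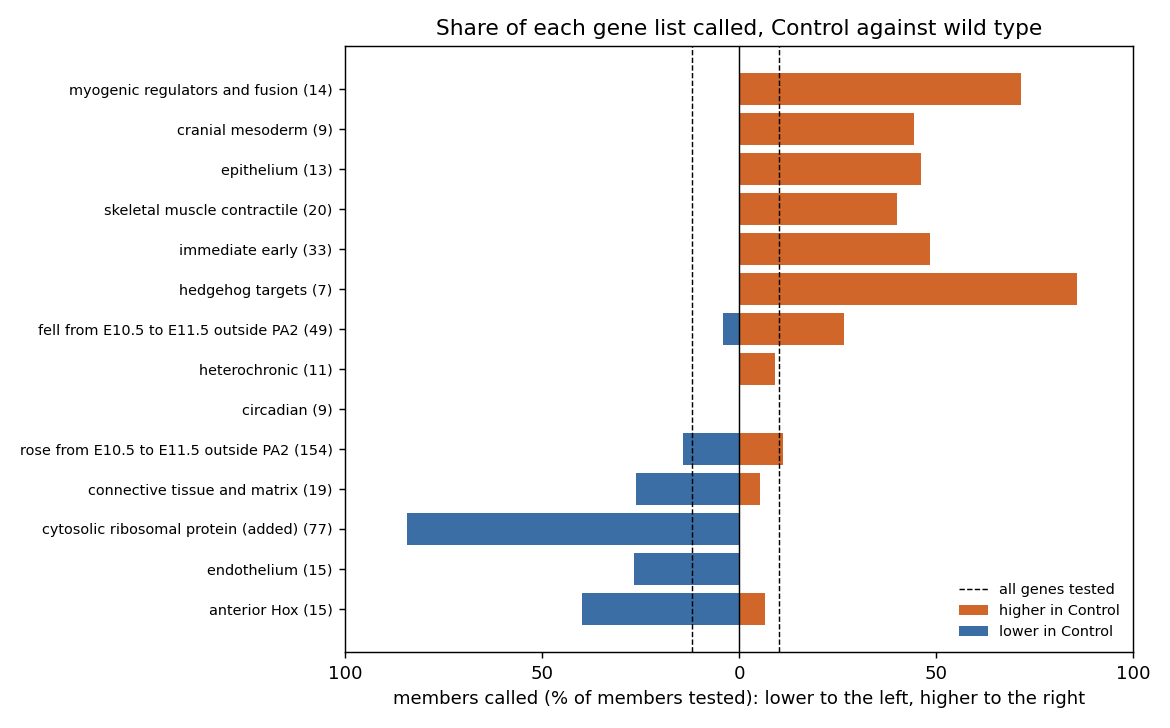
Share of tested members (percent) of selected gene lists called between Control and wild type, lower to the left and higher to the right, with the number tested after each name and dashed lines at the shares of all genes (12% and 10.1%). Hedgehog targets, myogenic genes and immediate early genes have the largest shares of higher members, after which come epithelium and cranial mesoderm, and the ribosomal protein list has the largest share of lower ones.

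Ribosomal protein genes were lower in Control as a class. This list was added after the data had been seen. Of 77 genes 65 were lower (84.4%, beside 12% of all genes) and none was higher (median log2 difference -0.81). Rpl3 was at 121, 128 and 122 CPM in wild type, at 74.2, 66.2 and 64.1 CPM in Control and at 67.3, 58.2 and 69 CPM in Hoxa2TempMut (log2 difference of Control -0.86 ± 0.09, adjusted p = 5.32e-09). Rps29 was at 22.7, 23.8 and 19.9 CPM, 8.62, 8.62 and 8.27 CPM and 8.2, 7.86 and 9.33 CPM. Many of these genes have near-identical pseudogene copies, so single members are uncertain. Summed over the list, the level was 6852 to 7603 CPM in wild type, 4213 to 4490 CPM in Control and 4158 to 4516 CPM in Hoxa2TempMut. A similar set, not identical to the list, held all protein-coding genes whose symbols begin with Rpl or Rps and a digit. Its share of nuclear counts was 1.02 to 1.10% in wild type, 0.648 to 0.692% in Control and 0.635 to 0.679% in Hoxa2TempMut. In the 41 libraries outside Control and Hoxa2TempMut that share was 0.923 to 1.69%.

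The difference also followed exonic length. In the shortest quintile of protein-coding genes (up to 1962 bases) the median log2 difference was -0.29, with 27.9% of genes lower and 4.86% higher. In the longest quintile (6122 bases or more) it was 0.09, with 3.39% lower and 16.9% higher. Hoxa2TempMut against wild type gave medians of -0.29 and 0.08. A trend of level against length was fitted and subtracted within each library, in an analysis added after the data had been seen. This removed the trend only in part: the median became -0.15 in the shortest quintile, with 19.1% lower and 6.78% higher, and -0.02 in the longest, with 9.56% lower and 8.57% higher. Then 1773 genes were higher (8.62%) and 2269 lower (11%), 19.7% together, and 3486 calls were shared with the same sign. The shared calls were 76.8% of the first set and 86.2% of the second. The immediate early, contractile and myogenic counts stayed at 16, 8 and 10, the ribosomal protein count was 59, and the count of lower connective tissue genes was 10. Among the genes named here, Crabp1, Id1, Myh11 and Snap25 lost their calls.

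**Figure D5:**
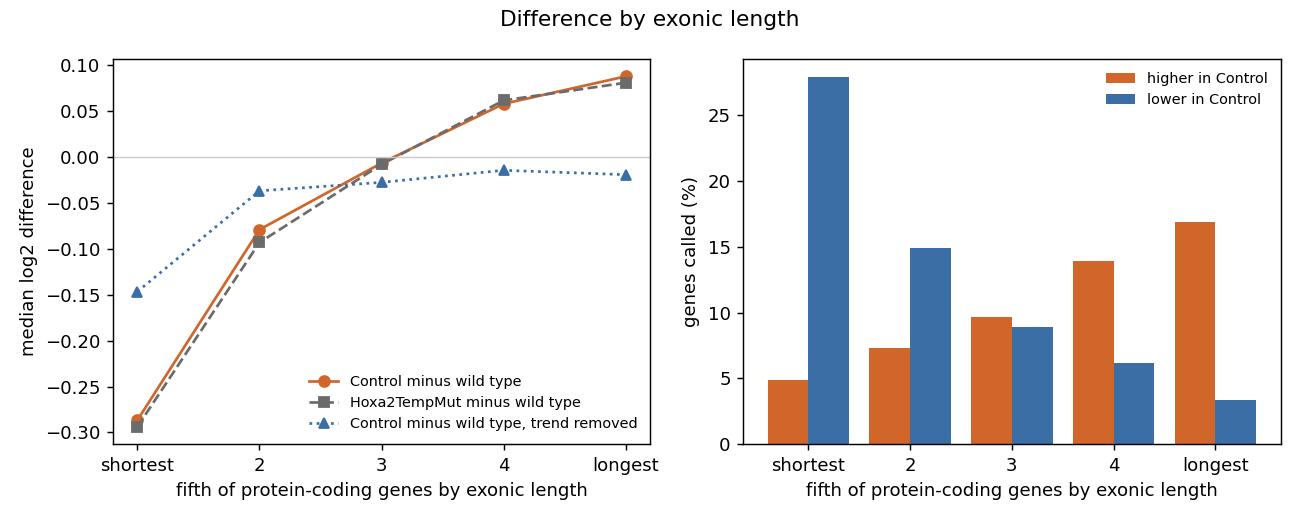
Median log2 difference and share of genes called, by quintile of protein-coding genes in order of exonic length. The median of Control minus wild type goes from -0.29 in the shortest quintile to 0.09 in the longest, and that of Hoxa2TempMut runs beside it.

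Several of the 15 largest falls were short genes of general function: Atp5g2, a subunit of mitochondrial ATP synthase (-1.91), Uqcrq, of respiratory complex III (-1.60), Sec61b, of the translocon (-1.66), Snrpd3, of the spliceosome (-1.66), and Rplp1 (-1.75). Lgals1, a galectin, was at 40.9, 40.7 and 38.7 CPM in wild type and at 12.7, 12.9 and 13.9 CPM in Control (log2 difference -1.61 ± 0.20, adjusted p = 1.29e-07). Gad2, which makes GABA from glutamate, was at 8.42, 6.15 and 8.42 CPM and at 0.907, 2.5 and 1.27 CPM (log2 difference -2.30 ± 0.50, adjusted p = 0.000786). All Control libraries of both genes lay below all wild-type ones. Among the 15 largest rises outside the groups already given, Nexn, an actin-binding protein of the Z-disc, was at 4.04, 5.09 and 4.98 CPM and at 15.6, 14.2 and 18.1 CPM. Ppargc1a, a coactivator of mitochondrial genes, was at 1.83, 1.67 and 2.02 CPM and at 6.15, 5.12 and 5.06 CPM, and the meiotic helicase Hfm1 was at 2.89, 9.67 and 3.12 CPM and at 20.5, 19.3 and 19.4 CPM. Mid1 and its listed copy MID1 were higher by 1.66 ± 0.37 and 1.70 ± 0.52, but reads of these near-identical copies may have been split between them, and MID1 lost its call without Control replicate 3 or wild-type replicate 2.

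Markers of other cell types were read in the same libraries. Of 15 endothelial genes 4 were lower (26.7%, beside 12% of all genes) and all 15 had a negative difference (median -1.03). Kdr, the main VEGF receptor, was at 5.59, 3.58 and 5.08 CPM in wild type and at 2.18, 1.88 and 1.44 CPM in Control (log2 difference -1.37 ± 0.27, adjusted p = 0.000228). Cdh5, Egfl7 and Emcn were lower with differences of -1.28, -1.08 and -1.03, and the count was 2 without Control replicate 1 or wild-type replicate 3. Emcn also lost its call without Control replicate 3 or any 1 wild-type library. Summed endothelial RNA was 38.4 to 41.3 CPM in wild type and 21.2 to 31.5 CPM in Control. Of 10 erythroid genes, the embryonic globin Hbb-y (-3.00) and Slc4a1 (-2.29) were lower (20%, beside 12% of all genes). The call of Slc4a1 was lost without replicate 1 or 3 of either group. Summed erythroid RNA was 28.6 to 45.4 CPM in wild type and 21.7 to 32.8 CPM in Control. The adult globins Hba-a1 and Hba-a2 were at 0 in both groups. These are near-identical copies whose shared reads may not have been counted, so the 0 does not show that their RNA was absent. Of 8 leukocyte genes Cd68, a lysosomal protein, was higher by 1.48 ± 0.17 (12.5%, beside 10.1% of all genes) and none was lower. However, 6 of the 8 had a negative difference (median -0.29). Summed leukocyte RNA was 11.2 to 13.4 CPM in wild type and 16.5 to 20.8 CPM in Control, and C1qa was at 0 in both groups.

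Epithelial genes were higher in 6 of 13 tested cases (46.2%, beside 10.1% of all genes) and lower in none. Trp63, the regulator of stratified epithelium, was at 0.404, 0.364 and 0.707 CPM in wild type and at 2.52, 1.53 and 1.8 CPM in Control (log2 difference 1.99 ± 0.33, adjusted p = 1.66e-05). Cdh1, or E-cadherin, was higher by 1.83 ± 0.47 and the claudin gene Cldn6 by 2.67 ± 0.50. Summed epithelial RNA was 7.29 to 10.9 CPM in wild type, 14.0 to 17.5 CPM in Control and 9.94 to 11.8 CPM in Hoxa2TempMut. The count was 3 without Control replicate 3, wild-type replicate 2 or wild-type replicate 3, and with library totals. Summed RNA of 12 neuronal genes was 125 to 159.7 CPM in wild type, 85 to 101 CPM in Control and 47.7 to 54.4 CPM in Hoxa2TempMut, opposite to the direction of most calls. Of the 12, 4 were higher (33.3%), among them Neurod1, Stmn2 and Snap25, and 2 were lower (16.7%, beside 12% of all genes), the neurofilament genes Nefl and Nefm. The count of higher ones was 2 without Control replicate 3 or wild-type replicate 3, and Snap25 was not called without replicate 1 or 3 of Control or replicate 2 or 3 of wild type. Nefl was at 89.3, 70.4 and 94 CPM in wild type and at 42.6, 45.7 and 50.6 CPM in Control (log2 difference -0.87 ± 0.20, adjusted p = 0.00108). The part that other cell types had in the differences between the groups was not tested.

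Lists of other stress and signalling responses were mixed. Of 12 heat shock genes 1 was higher and 2 were lower, and the inducible Hspa1a differed by 0.78 ± 0.53 (adjusted p = 0.311; its copy Hspa1b shares most of its sequence). Of 12 genes of integrated and unfolded protein stress 2 were higher and 2 were lower, of 14 p53 targets 1 and 2. Of 19 hypoxia and glycolysis genes 2 were higher and 3 were lower. The shares called in these 3 lists were 33.3%, 21.4% and 26.3%, and 25% for heat shock. Over all genes 22.1% were called, 10.1% higher and 12% lower. Counts this small moved by 1 or 2 members between alternatives. Of 22 proliferation genes 6 were higher (27.3%) and 3 were lower (13.6%). Their higher count was 3 without Control replicate 1, Control replicate 3 or wild-type replicate 3. Of 18 genes of cholesterol synthesis 5 were higher (27.8%), led by Insig1 with 0.67 ± 0.11, and 1 was lower (5.56%). The higher count was 1 without Control replicate 3. Spry2 and Etv1, feedback genes of FGF signalling, were higher by 1.02 ± 0.24 and 0.77 ± 0.15. In that list 3 of 11 were higher (27.3%) and 1 was lower (9.09%). Of 10 genes of retinoic acid signalling 2 were lower (20%) and none was higher. One of them, the carrier Crabp1, differed by -0.60 ± 0.19 and was not called without Control replicate 1, Control replicate 2 or wild-type replicate 1. None of 9 circadian genes was called by edgeR.

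Genes that often vary between mouse strains were called in all 6 tested cases, 2 higher and 4 lower, where 22.1% of all genes were called. Like the others, this list was chosen with earlier results of these data known. Glo1 and Btbd9 are neighbours in the genome, and so are Ide and Fgfbp3, so the 6 cases are not independent of each other. Strain was not tested. Fgfbp3 was at 0.714, 1.03 and 0.803 CPM in wild type and at 3.32, 3.33 and 5.0 CPM in Control, and Ide was higher by 0.47 ± 0.08. Glo1, an enzyme that clears methylglyoxal, was at 52.7, 76 and 54 CPM and at 27.6, 36.2 and 23.3 CPM (log2 difference -1.07 ± 0.18, adjusted p = 2.61e-05). Wdfy1, Nnt and Btbd9 were lower with differences of -0.55, -0.50 and -0.38, and Btbd9 lost its call without replicate 3 of either group, Control replicate 1 or wild-type replicate 2. Within 5 Mb of Hoxa2, 12 of 116 tested genes were higher and 13 were lower, 21.6% in all, beside the 22.1% called over all genes.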

How the data were processed

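Gene counts were deposited by the authors as 1 table of raw counts for 47 libraries and 38215 genes, with gene coordinates and exonic lengths. Per the labels' protocols, the libraries were unstranded and sequenced as single-end reads. Per the submitters' processing notes the build was GRCm38 and bcl2fastq 2.17 was used; the aligner and the counting program are stated nowhere in the labels or headers. Of its columns, 22 repeat an earlier name with identical values and were read once.

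Groups were taken from the labels. The counts were tested with edgeR 4.0.16 in R 4.3.3 (quasi-likelihood test, TMM scaling, 1 mean for each of 16 groups, 31 residual degrees of freedom, Benjamini-Hochberg adjustment). The low-count filter (filterByExpr, minimum count 10, minimum total 15) left 20560 genes. The code was tested on simulated data. Members and gene lists were chosen with earlier results of these data known. The genes named were Hoxa2, Actc1 and Fosb, the 15 largest changes in each direction (called, at least 5 CPM, no overlap), up to 5 called members of each list and the 5 largest stage genes in each direction. Immediate early, contractile and myogenic members were all open to naming. Prrx1, Prrx2, Ddx3y, Dlx5, Col1a1, Hoxb2, Btbd9, Hspa1a, Rpl3 and Rps29 were named after their values had been seen, and so were other genes named as not called. Some called genes are not reported here. A symbol with several identifiers was read as the one of highest total count. Promoters came from RefSeq (GRCm38.p6).

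Pairs of replicates differed by more than sampling noise (chi-square per degree of freedom 7.57 to 17.9 in Control and 9.15 to 19.9 in wild type), so each counted as its own library. Alternatives were DESeq2 1.42.0, other scalings and filters, smaller fits, a replicate block, leaving out each library and, added later, subtracting a length trend and leaving out E8.5 and HoxA2OE.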

Additional observations from a re-analysis of the deposited data

How the results depend on the processing

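No call changed direction among the 233 genes followed over 16 alternatives: of 3697 values, 3353 stayed on the same side of the threshold, 308 lost a call and 36 gained one. Library totals in place of TMM gave 1104 higher genes for Control and 1266 higher and 4890 lower for Hoxa2TempMut, and moved the median of all genes to -0.118 in the comparison of Control. The 9 PA2 libraries of E11.5 fitted alone gave 3190 higher genes for Control. DESeq2 called 2056 higher and 2594 lower. Leaving out 1 library gave 1424 to 1694 higher and 1896 to 2122 lower genes for Control, and 2019 to 2453 higher and 2341 to 2716 lower for Hoxa2TempMut. Same-numbered Control and wild-type libraries did not deviate together (r = 0.089, -0.21 and -0.29 over 11082 genes). For same-numbered Control and Hoxa2TempMut libraries r was 0.35, -0.085 and 0.19. Deviations within groups of 3 libraries depend on each other, so these values cannot decide whether the numbers pair the samples. With the replicate block 2008 genes were higher and 2367 lower in Control, and 2861 and 3084 in Hoxa2TempMut. A separate fit of Hoxa2TempMut with wild type alone was not run. The immediate early count was 13 to 18 and the ribosomal protein count 59 to 70 over all alternatives. Genes under about 1 CPM, such as the myogenic factors, rest on few counts, and 3 libraries in each group cannot separate genotype from library preparation.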

Other observations

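Early crest and glial genes held members of both directions. Of 10, 3 were higher in Control (30%) and 1 was lower (10%), beside 10.1% and 12% of all genes. Tfap2a, an AP-2 factor of early crest, was at 3.67, 2.58 and 3.5 CPM in wild type and at 6.12, 6.45 and 7.38 CPM in Control (log2 difference 1.04 ± 0.19, edgeR adjusted p = 5.85e-05). In PA2 at E10.5 it was at 19, 18.3 and 15.9 CPM, above all 6 libraries. Erbb3, the neuregulin receptor of crest and Schwann cell precursors, was higher by 1.08 ± 0.20, and Tfap2b by 0.94 ± 0.28, the latter not without Control replicate 3, wild-type replicate 2 or wild-type replicate 3. Ets1, a factor of cranial crest that endothelium also expresses, was at 64.1, 48.6 and 50.8 CPM in wild type, 27.9, 28 and 33.8 CPM in Control and 25, 24.1 and 30.3 CPM in Hoxa2TempMut (log2 difference of Control -0.87 ± 0.13, adjusted p = 5.9e-06). All Control libraries lay below all wild-type ones.

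Feedback genes of the BMP, Notch and Wnt pathways were called in 28.6%, 16.7% and 12.5% of cases, beside 22.1% of all genes. Of 7 BMP feedback genes Id3 and Id1 were lower and none was higher. Id3 was at 40.4, 42.8 and 34.8 CPM in wild type and at 19.7, 25.8 and 22.1 CPM in Control (log2 difference -0.80 ± 0.15, adjusted p = 7.65e-05), while Id1 (-0.62 ± 0.23) kept its call only when wild-type replicate 3, of the 6 libraries, was the one left out. Of 6 Notch targets Heyl was higher, at 3.98, 2.61 and 4.08 CPM in wild type and 7.63, 7.5 and 9.29 CPM in Control, and of 8 Wnt feedback genes Znrf3, which clears Wnt receptors, was higher by 0.51 ± 0.10. None of the 6 sex-linked genes was called by edgeR.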
